A study of Mus musculus with 10 samples.

Results

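The genes described here copy DNA and supply its building blocks: 42 genes of the 20692 in the count table, in mouse hearts with and without pressure overload. They were taken by symbol from a list of 44 genes of replication origins, the replicative helicase, the replication fork, deoxynucleotide synthesis and the chromatin that is rebuilt behind the fork. The other 2 listed symbols, Orc1 and Orc6, are not among the table's symbols, and the genes were given there under their older symbols Orc1l and Orc6l.

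Polyadenylated RNA was sequenced from hearts of wild-type FVB/NJ mice aged 9 weeks, an inbred laboratory strain, all labelled female. The 5 sham animals had a mock operation, and the 5 TAC animals had transverse aortic constriction, in which a band around the aortic arch makes the left ventricle pump against higher pressure, and were sampled after 1 week. No transgene, deletion or drug was named for either group. The comparison asks how cardiac messenger RNA differs after 1 week of pressure overload. The tissue was labelled whole heart, while the protocol named the frozen ventricular apex, and the libraries did not keep the strand. The titles of the sham libraries do not name the operation, and their group came from the series' design text.

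Replication begins at origins, where the origin recognition complex, Cdc6 and Cdt1 load the ring of Mcm proteins that becomes the helicase, and geminin (Gmnn) blocks Cdt1 once DNA synthesis is under way. The fork then needs primase, polymerases, a sliding clamp and its loader, single-strand binding protein, flap removal and ligation, a supply of deoxynucleotides, and histones and methylation on the new strands. Many of these genes are known targets of E2F transcription factors and are transcribed mostly in dividing cells. Adult cardiomyocytes divide rarely, whereas fibroblasts, endothelial cells and immune cells of the heart can divide.

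The libraries held 7410967 to 10126574 counts. The library of TAC replicate 1 went against its female label: Xist had 14 counts there and 1042 to 1561 in the other 9 libraries, and the Y-linked Ddx3y and Eif2s3y had 155 and 132 counts, against at most 2 elsewhere. Counts are therefore also given without that library where they matter. The submitters' processing notes list different aligner versions for the groups (TopHat2 2.0.10 for sham and TopHat 1.3.0 for TAC), so the effects of alignment and of TAC cannot be told apart. Levels are given in CPM, the count of a gene per 1000000 counts of its library, with library sizes scaled by TMM so that most genes stay level. Differences are log2 fold changes of TAC over sham with their standard error (SE), where 1 is a doubling. A gene passed when its p from edgeR's quasi-likelihood test, adjusted by Benjamini-Hochberg over all 12001 genes tested, was under 0.05. The RNA came from bulk tissue, in which fewer cells of a type and less RNA per cell cannot be told apart.

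After TAC, 22 of the 40 tested replication genes rose (55.0%), 1 fell and 17 did not pass. Among all tested genes 18.8% rose and 17.0% fell. Of the genes that rose, 5 did so at least 4-fold (Cdc6, Gins2, Mcm6, Mcm10 and Uhrf1), 11 between 2-fold and 4-fold and 6 less than 2-fold. Without TAC replicate 1 the log2 fold change was 1.97 for Gins2 and 1.97 for Mcm10, under 4-fold. Cdc6, Mcm6 and Uhrf1 stayed above 4-fold there, at 2.41, 2.18 and 2.04. The background was 3.25% of tested genes rising at least 2-fold and 0.692% at least 4-fold. The median log2 fold change was 0.64 over the 40 genes and 0.00 over all genes. Scaling by library totals moved the 2 medians to 0.75 and 0.11.

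The rise was uneven along the replication machinery. All 4 chromatin genes, 8 of 10 tested helicase genes and 4 of 5 nucleotide genes rose, but 1 of 7 tested polymerase and primase genes, 2 of 6 clamp and loader genes and 0 of 3 single-strand binding genes did. None of the 3 Rpa genes had an unadjusted p under 0.05 in edgeR, and DESeq2 called 0 of them as well. DESeq2 called the same 22 genes as higher. Gins3 and Pole2 were too weakly counted to be tested. The summed level of the 42 genes was 312, 308, 346, 360 and 339 CPM in sham replicates 1 to 5 and 523, 371, 524, 471 and 441 CPM in TAC replicates 1 to 5. Every TAC library lay above every sham library, although TAC replicate 2 was close to the highest sham library.

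**Figure D1:**
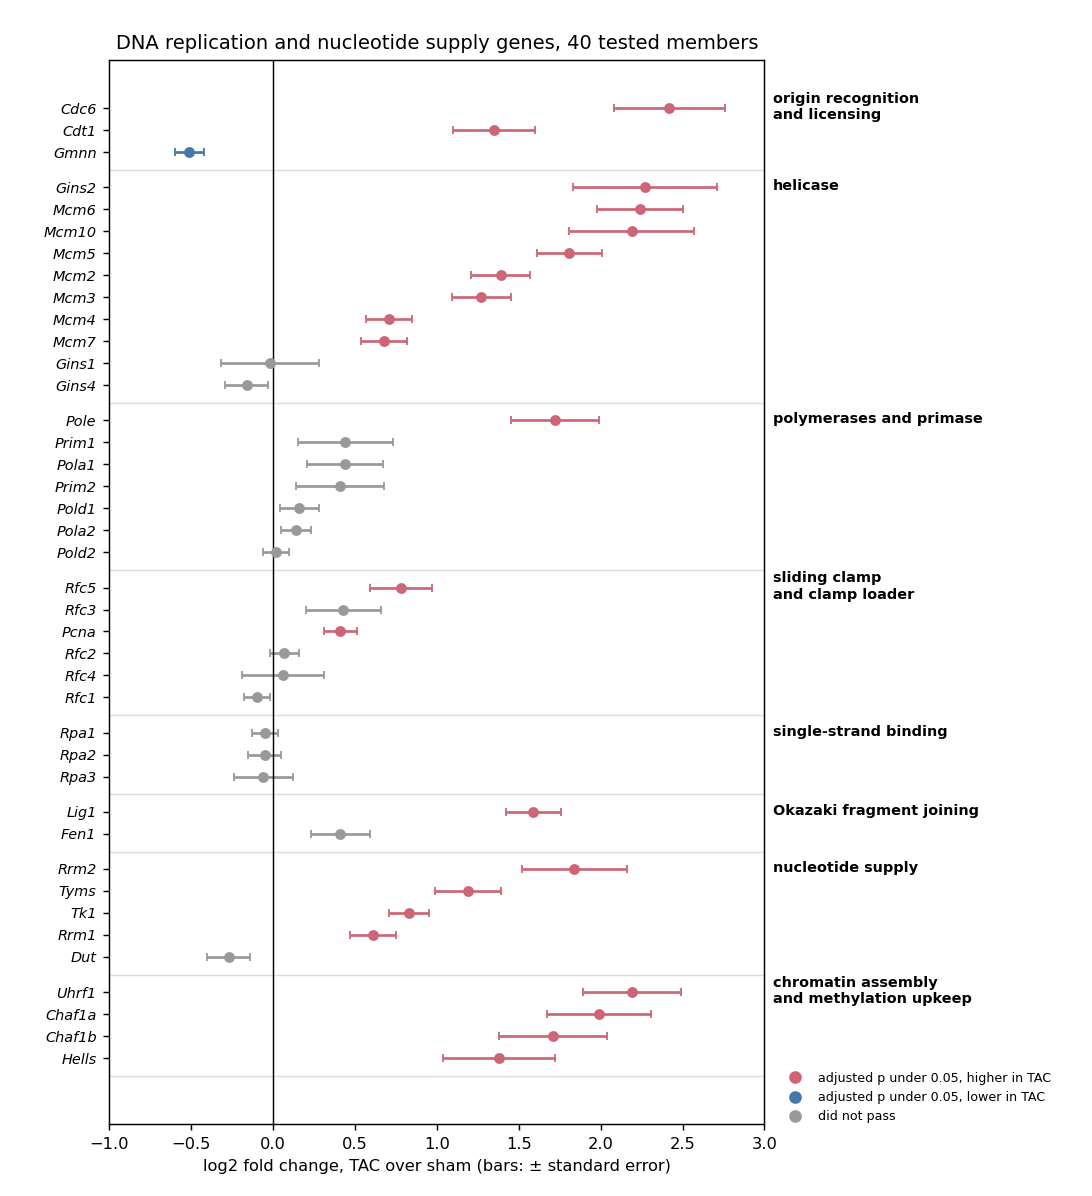
Log2 fold change of TAC over sham (points, with bars of ± 1 SE) for the 40 tested replication and nucleotide genes, grouped by role; red and blue mark genes with an adjusted p under 0.05 and grey marks genes that did not pass. The helicase ring, the chromatin genes and most nucleotide genes lie to the right of 0, Gmnn lies to the left at -0.51, and the 3 Rpa genes lie at -0.06 to -0.05.

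The filter on low counts matters for 4 of these genes. Cdc6, Mcm10, Gins2 and Hells were kept through their TAC libraries. At most 1 of their 5 sham libraries reached the filter's minimum of 1.19 CPM. They could therefore not have been tested without being higher in TAC. In the counts by role Cdc6 stands among the licensing genes, Mcm10 and Gins2 among the helicase genes and Hells among the chromatin genes. The polymerase, clamp and single-strand binding roles hold no such gene. With no filter all 42 genes were tested, and again 22 rose and 1 fell, against 2245 risen and 1943 fallen of all 16647 genes. Without TAC replicate 1, 22 of 41 tested genes rose and 1 fell, against 16.7% and 15.1% of all genes tested there. For 18 of the 40 tested members (45.0%) every TAC library lay above every sham library, against 12.2% of all tested genes, and all 18 were among the 22 that rose. For 1, Gmnn, every TAC library lay below, against 11.6% of all tested genes. The groups overlapped for the 4 other risen genes, Mcm7, Pcna, Rrm1 and Hells.

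Promoter sequences from RefSeq (GRCm38.p6, 250 bases before to 50 bases after each start) were matched to 34 of the 42 genes. No entry was matched for Gmnn, Pole, Mcm4, Rfc2, Prim2, Gins1, Gins4 and Gins2. The letters TTTCCCGC, TTTGGCGC, TTTCGCGC or TTTGCCGC, on either strand, are called an E2F-type site here. Such a site stood in 14 of the 34 promoters (41.2%), against 704 of 27025 genes of the whole RefSeq table (2.6%). The 12 tested genes with a site had a median log2 fold change of 1.37 (0.16 to 2.42) and 9 of them rose. The 20 tested genes without one had a median of 0.42 (-0.27 to 2.19) and 10 of them rose. Over all 9434 tested genes with a promoter entry the site went with little difference: 21.8% of the 435 genes with it rose, against 18.3% of the 8999 without it. A match of letters is a description and does not show that a factor binds there.

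The 6 sequences printed here belong to the risen genes with the largest changes among those with a site. The rise and the site were both conditions of this choice, so having them in common is not a result. Each sequence is printed 5′ to 3′ along the strand of the gene, in lower case with every E2F-type match in capitals. In Mcm6 and Mcm5 a match on the printed strand runs into one on the other strand, so that 12 capitals stand together. The site lies 138 bases before the start in Cdc6, 110, 106 and 47 bases before it in Mcm6, 185 in Uhrf1, 153 and 149 in Mcm5 and 62 in Hells. Lig1 has its match downstream, beginning at base 27 when one of its 3 listed starts is counted as base 1, and 30 bases around it are printed. The regions are chr11:98908001-98908150 (plus strand) for Cdc6, chr1:128359706-128359855 (minus) for Mcm6, chr17:56304128-56304312 (plus) for Uhrf1, chr8:75109356-75109508 (plus) for Mcm5, chr7:13278841-13278870 (plus) for Lig1 and chr19:38930840-38930989 (plus) for Hells.
Cdc6: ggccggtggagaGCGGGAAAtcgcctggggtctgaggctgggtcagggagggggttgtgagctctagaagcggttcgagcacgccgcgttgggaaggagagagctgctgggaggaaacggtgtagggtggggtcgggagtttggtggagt
Mcm6: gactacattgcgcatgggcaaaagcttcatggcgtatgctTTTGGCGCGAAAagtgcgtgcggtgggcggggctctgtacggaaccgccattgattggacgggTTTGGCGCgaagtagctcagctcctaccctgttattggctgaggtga
Uhrf1: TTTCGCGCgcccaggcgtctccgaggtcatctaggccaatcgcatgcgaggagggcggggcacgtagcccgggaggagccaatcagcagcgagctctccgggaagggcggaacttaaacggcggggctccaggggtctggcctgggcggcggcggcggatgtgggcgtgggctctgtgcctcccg
Mcm5: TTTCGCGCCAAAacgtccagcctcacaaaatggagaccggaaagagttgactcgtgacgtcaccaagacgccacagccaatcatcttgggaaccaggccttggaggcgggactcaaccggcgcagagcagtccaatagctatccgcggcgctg
Lig1: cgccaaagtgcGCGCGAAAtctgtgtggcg
Hells: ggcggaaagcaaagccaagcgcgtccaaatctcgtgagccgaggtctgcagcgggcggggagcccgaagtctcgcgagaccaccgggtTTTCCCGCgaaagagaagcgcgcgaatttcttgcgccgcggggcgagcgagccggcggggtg

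Mcm6 is the printed gene with the most sites, 3 in all, with overlapping matches counted separately. Uhrf1, Lig1, Cdc6 and Hells hold 1 site each in the printed stretch. Not every gene that rose has one: no E2F-type site stood in the windows of 10 risen genes, Mcm2, Mcm10, Pcna, Rfc5, Rrm1, Rrm2, Tyms, Tk1, Chaf1a and Chaf1b. A CCAAT box, the letters CCAAT on either strand, was present in 20 of the 34 promoters (58.8%) and 41.1% of all genes, and the median log2 fold change was 0.61 with it and 0.83 without it. The CHR element TTTGAA, known from promoters of mitotic genes, was present in 4 of the 34 (11.8%) and 20.2% of all genes.

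Both licensing activators, Cdc6 and Cdt1, rose, and Gmnn, the inhibitor of Cdt1, fell. Cdc6, which loads the helicase onto origins, had 0.314, 0.122, 0.775, 0.915 and 0.687 CPM in sham replicates 1 to 5 and 3.12, 2.17, 4.46, 2.61 and 2.85 CPM in TAC replicates 1 to 5. These levels rest on 1 to 8 counts per sham library and 16 to 37 per TAC library, and all TAC values lay above all sham values. Its log2 fold change was 2.42 ± 0.34 (SE), with an edgeR adjusted p of 0.000233. Cdt1, its loading partner, had 1.36, 3.17, 3.75, 2.63 and 2.17 CPM in sham and 7.63, 4.49, 9.28, 6.05 and 5.49 CPM in TAC. It rose by 1.35 ± 0.25 (SE) on the log2 scale (edgeR adjusted p = 0.00138), and the groups did not overlap.

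Gmnn encodes geminin, which holds Cdt1 inactive outside the window of licensing. Its levels were 17.5, 17.9, 16.9, 21.9 and 18.9 CPM in sham and 14.2, 13.4, 11.3, 12.6 and 13.8 CPM in TAC. It was the 1 member that fell, by 0.51 ± 0.09 (SE) on the log2 scale (edgeR adjusted p = 0.00111), and each TAC library lay below each sham library. Orc1l, the older symbol of the origin recognition subunit Orc1, had 2 to 8 counts per sham library and 3 to 13 per TAC library and was not tested. Orc6l was at 2.12 ± 0.381 (SD, n = 5) CPM in sham and 2.67 ± 0.620 CPM in TAC, with a log2 fold change of 0.33 ± 0.21 (SE) that did not pass (edgeR adjusted p = 0.242).

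All 6 subunits of the Mcm2 to Mcm7 ring, the motor of the replicative helicase, rose. Mcm6 had 1.05, 1.83, 3.23, 2.17 and 3.09 CPM in sham replicates 1 to 5 and 12.4, 7.07, 14.3, 10.7 and 8.67 CPM in TAC replicates 1 to 5. The lowest TAC value of Mcm6 was above the highest sham value, and its log2 fold change was 2.24 ± 0.26 (SE, edgeR adjusted p = 7.03e-05). Mcm5 had 4.30, 3.66, 5.04, 6.98 and 4.92 CPM in sham and 22.0, 11.7, 22.3, 16.7 and 14.7 CPM in TAC. It rose by 1.81 ± 0.20 (SE) on the log2 scale (edgeR adjusted p = 5.65e-05), again with no overlap.

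The other ring subunits rose by less. Mcm2 went from 7.63 ± 1.61 to 19.9 ± 4.92 CPM (SD, n = 5 per group) and Mcm3 from 7.66 ± 1.28 to 18.4 ± 4.71 CPM, with log2 fold changes of 1.39 ± 0.18 and 1.27 ± 0.18 (SE). Mcm4 and Mcm7 rose by 0.71 ± 0.14 and 0.68 ± 0.14 (SE) on the log2 scale, with edgeR adjusted p-values of 0.00218 and 0.00264. In Mcm7 the lowest TAC library, at 12.2 CPM, lay under the highest sham library, at 12.8 CPM. The Mcm7 gene overlaps Ap4m1 over 7.3% of its exon bases in GENCODE M21, and Ap4m1 had a log2 fold change of 0.03 ± 0.10 (SE). A shorter stretch of 64 bases overlaps Cops6, which fell by 0.24 ± 0.06 (SE) on the log2 scale (edgeR adjusted p = 0.00525).

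Levels per kilobase of the principal transcript show how the ring subunits stood to each other. In sham the lowest subunit was Mcm6, at 0.781 CPM per kb, and the highest Mcm7, at 3.79 CPM per kb. In TAC the lowest was Mcm4, at 3.53, and the highest Mcm3, at 6.08 CPM per kb. The ratio of the highest to the lowest subunit within a library was 3.78 to 9.23 in sham and 1.71 to 1.93 in TAC, so the subunits were closer to equal level in every TAC library than in any sham library. With all exon bases as the length the ratios were 4.06 to 9.91 and 1.82 to 2.49. The difference in level was smallest for Mcm4, at 1.37 CPM per kb, and largest for Mcm5, at 3.70 CPM per kb. The sham ratios rest on 10 to 27 counts of Mcm6 per library.

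**Figure D2:**
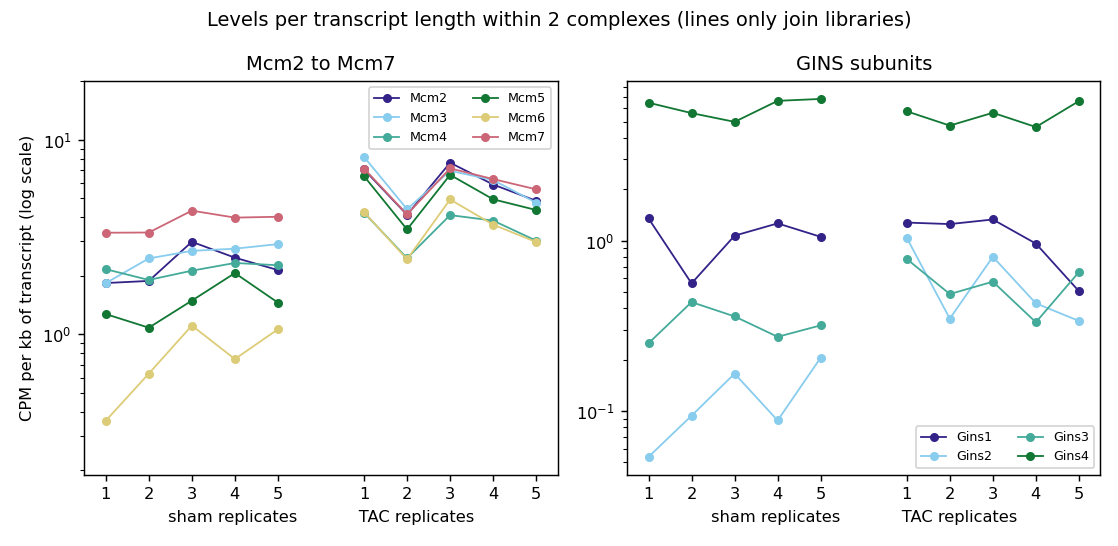
Level in CPM per kilobase of the principal transcript (log axis) of each subunit of the Mcm2 to Mcm7 ring (left) and of GINS (right), with 1 point per library and lines that only join the libraries. The Mcm subunits spread 3.78-fold to 9.23-fold within a sham library and 1.71-fold to 1.93-fold within a TAC library, while Gins4 stays far above the other GINS subunits in all 10 libraries.

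Mcm10, which helps the loaded helicase to fire, had 0.419, 0.488, 1.29, 0.229 and 0.801 CPM in sham and 4.62, 2.04, 3.50, 2.40 and 2.09 CPM in TAC. It rose by 2.19 ± 0.38 (SE) on the log2 scale (edgeR adjusted p = 0.000779), and its groups did not overlap.

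The GINS complex, which binds the Mcm ring together with Cdc45 to form the active helicase, did not move as 1 unit. Gins2 had 0.210, 0.366, 0.646, 0.343 and 0.801 CPM in sham and 4.05, 1.36, 3.13, 1.67 and 1.32 CPM in TAC. It rose by 2.27 ± 0.44 (SE) on the log2 scale (edgeR adjusted p = 0.00162), on 2 to 7 counts per sham library. In GENCODE M21 Gins2 shares 67.3% of its exon bases with Gse1, whose log2 fold change was -0.07 ± 0.07 (SE), and reads of the 2 genes cannot be told apart where they overlap. Gins1 and Gins4 did not pass, with log2 fold changes of -0.02 ± 0.30 and -0.16 ± 0.13 (SE). The sign for Gins1 was not stable, being 0.09 with library totals. Gins3 had 6 to 9 counts per sham library and 8 to 17 per TAC library and was not tested. Of the 4 settings in which it was tested it passed as higher in 1, without sham replicate 2 (edgeR adjusted p = 0.0348), and not without sham replicate 3 (0.0601), with no filter (0.0719) or in DESeq2 (0.121). Per length, Gins4 was 50.2 times as high as Gins2 in sham, and 9.68 times as high as the lowest subunit, Gins3, in TAC. The sham ratio rests on the 2 to 7 counts of Gins2, whose overlap with Gse1 also limits its level per length.

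Of the polymerase and primase genes Pole, the catalytic subunit of the leading-strand polymerase, was the 1 of 7 tested that rose. It had 2.52, 1.71, 4.26, 3.32 and 3.09 CPM in sham replicates 1 to 5 and 12.2, 4.76, 12.3, 10.9 and 8.56 CPM in TAC replicates 1 to 5. The TAC libraries all lay above the sham libraries, TAC replicate 2 by a small margin, and the log2 fold change was 1.72 ± 0.27 (SE, edgeR adjusted p = 0.000391). Its accessory subunit Pole2 had 5 to 12 counts per sham library and 9 to 13 per TAC library and was not tested.

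The lagging-strand polymerase subunits did not pass. Pold1, its catalytic subunit, had a log2 fold change of 0.16 ± 0.12 (SE) and Pold2 of 0.02 ± 0.08 (SE). Pold2 stood at 22.5 ± 2.09 CPM in sham and 22.8 ± 1.33 CPM in TAC (SD, n = 5 each). Pold1 had a wide TAC range, 14.0 to 22.9 CPM, around a sham range of 16.4 to 18.2 CPM.

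The polymerase that starts each strand, Pola1 with Pola2 and the primase subunits Prim1 and Prim2, showed positive fold changes that did not pass. The log2 values were 0.44 ± 0.23 for Pola1, 0.44 ± 0.29 for Prim1, 0.41 ± 0.27 for Prim2 and 0.14 ± 0.09 for Pola2 (SE), with edgeR adjusted p-values of 0.153 to 0.272. For Pola2, scaling by library totals gave 0.24 with an adjusted p of 0.0471 in edgeR. Prim1 and Prim2 had 6 to 36 counts per library, so these estimates are coarse.

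Pcna, the sliding clamp that tethers the polymerases, rose by less than 2-fold. It had 22.3, 19.6, 25.4, 24.4 and 28.4 CPM in sham and 33.1, 27.9, 34.1, 34.7 and 30.0 CPM in TAC. Sham replicate 5 lay just above TAC replicate 2, and the other libraries were separated by group. The log2 fold change was 0.41 ± 0.10 (SE, edgeR adjusted p = 0.00514). Named processed copies of Pcna exist in the mouse genome (Pcna-ps1 and Pcna-ps2), and how the authors' counting treated reads shared with them is not given in the sources used here.

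Among the 5 clamp loader genes Rfc5 rose. It had 3.04, 3.54, 3.23, 2.52 and 4.35 CPM in sham and 7.97, 4.49, 4.58, 6.05 and 5.38 CPM in TAC, with a log2 fold change of 0.78 ± 0.19 (SE, edgeR adjusted p = 0.00758). The gap between the groups was narrow, from 4.35 to 4.49 CPM. Rfc1, the large subunit and the most abundant one per length, had a log2 fold change of -0.10 ± 0.08 (SE), or 0.01 with library totals. Rfc2, Rfc3 and Rfc4 had values of 0.07 ± 0.09, 0.43 ± 0.23 and 0.06 ± 0.25 (SE), and none passed. Rfc4 had 7 to 19 counts per library, and 12.7% of its exon bases overlap Eif4a2, which fell by 0.33 ± 0.10 (SE) on the log2 scale (edgeR adjusted p = 0.0166).

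Replication protein A, which coats single-stranded DNA in replication and also in repair, showed no detectable difference. Rpa1, its large subunit, had 44.2, 44.1, 47.1, 52.5 and 50.7 CPM in sham and 43.0, 38.7, 46.2, 51.6 and 50.0 CPM in TAC, and the groups overlapped almost wholly. The log2 fold changes were -0.05 ± 0.08 for Rpa1, -0.05 ± 0.10 for Rpa2 and -0.06 ± 0.18 for Rpa3 (SE), and with library totals they were 0.05, 0.06 and 0.04. Per length the 3 subunits also kept their spread: the highest was 2.13 times the lowest in sham and 2.10 times in TAC.

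Lig1, the ligase that seals Okazaki fragments, rose about 3-fold. It had 4.09, 4.76, 5.42, 4.46 and 4.81 CPM in sham and 17.8, 9.11, 15.8, 14.2 and 13.4 CPM in TAC. The sham libraries lay within a narrow range and all TAC libraries were far above it. The log2 fold change was 1.59 ± 0.17 (SE, edgeR adjusted p = 4.45e-05). Its partner Fen1, the flap endonuclease that trims fragments before ligation, had 5.77, 5.12, 7.62, 6.86 and 5.26 CPM in sham and 10.1, 6.79, 10.4, 7.52 and 5.82 CPM in TAC. The groups overlapped, and its log2 fold change of 0.41 ± 0.18 (SE) did not pass (edgeR adjusted p = 0.0933). It was the 1 gene of the 17 with an unadjusted p under 0.05, at 0.0399. Fen1 passed with library totals (0.52, adjusted p = 0.0403) and without TAC replicate 5 (0.51, adjusted p = 0.0353), both in edgeR. In GENCODE M21 78.8% of its exon bases overlap the antisense gene Gm10143.

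Nucleotide supply genes rose for 4 of 5 members. Rrm2, the small subunit of ribonucleotide reductase, is the subunit known to be limited to dividing cells. It had 1.15, 0.610, 3.10, 1.49 and 1.60 CPM in sham and 5.55, 3.67, 8.44, 4.80 and 5.82 CPM in TAC. Sham replicate 3 came closest to the TAC libraries but the groups did not overlap. The log2 fold change was 1.84 ± 0.32 (SE, edgeR adjusted p = 0.00079). Rrm1, the large subunit, rose less, from 7.91 ± 0.918 to 12.1 ± 2.33 CPM (SD, n = 5 each), a log2 fold change of 0.61 ± 0.14 (SE, edgeR adjusted p = 0.00506).

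Both thymidylate genes rose. Tk1, the cytosolic thymidine kinase of the salvage route, had 8.80, 9.15, 11.8, 10.1 and 9.50 CPM in sham and 20.5, 13.3, 18.9, 16.8 and 17.6 CPM in TAC. Its log2 fold change was 0.83 ± 0.12 (SE, edgeR adjusted p = 0.000264). Tyms, thymidylate synthase of the de novo route, had 2.94, 3.29, 2.33, 2.40 and 2.06 CPM in sham and 7.28, 4.49, 7.95, 4.80 and 5.38 CPM in TAC. It rose by 1.19 ± 0.20 (SE) on the log2 scale (edgeR adjusted p = 0.000689). Neither gene's groups overlapped. Dut, which removes dUTP so that uracil is not built into DNA, had a log2 fold change of -0.27 ± 0.13 (SE) and did not pass (edgeR adjusted p = 0.137). Without TAC replicate 3 it passed as lower, at -0.38 with an edgeR adjusted p of 0.0329.

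The 4 genes that rebuild chromatin and its methylation on new DNA all rose, and together had the largest ratio of any role. Their summed level was 8.03 ± 3.27 CPM in sham and 32.3 ± 10.4 CPM in TAC (SD, n = 5 each), a ratio of 4.03, against 2.12 for the helicase genes and 1.20 for polymerases and primase. Uhrf1, which guides Dnmt1 to hemimethylated sites, had 2.73, 1.58, 5.55, 5.49 and 4.12 CPM in sham and 24.6, 9.51, 21.7, 16.7 and 15.6 CPM in TAC. Its log2 fold change was 2.19 ± 0.30 (SE, edgeR adjusted p = 0.000173), with no overlap between groups.

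Chaf1a and Chaf1b encode subunits of chromatin assembly factor 1, which lays histones onto new DNA. Chaf1a had 1.05, 1.34, 2.45, 4.12 and 2.52 CPM in sham and 10.8, 4.35, 11.7, 10.0 and 8.67 CPM in TAC. Sham replicate 4 and TAC replicate 2 nearly met, and the log2 fold change was 1.99 ± 0.32 (SE, edgeR adjusted p = 0.0005). By GENCODE M21 52.5% of its exon bases overlap Ubxn6 on the other strand, which had a log2 fold change of -0.16 ± 0.07 (SE) and did not pass. Chaf1b rose by 1.71 ± 0.33 (SE) on the log2 scale (edgeR adjusted p = 0.00173). Hells, a remodelling ATPase needed for DNA methylation, had 3 to 11 counts per sham library and 8 to 22 per TAC library. It rose by 1.38 ± 0.34 (SE) on the log2 scale (edgeR adjusted p = 0.00651), but without TAC replicate 4 or TAC replicate 5 it did not pass the filter on low counts and was not tested.

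**Figure D3:**
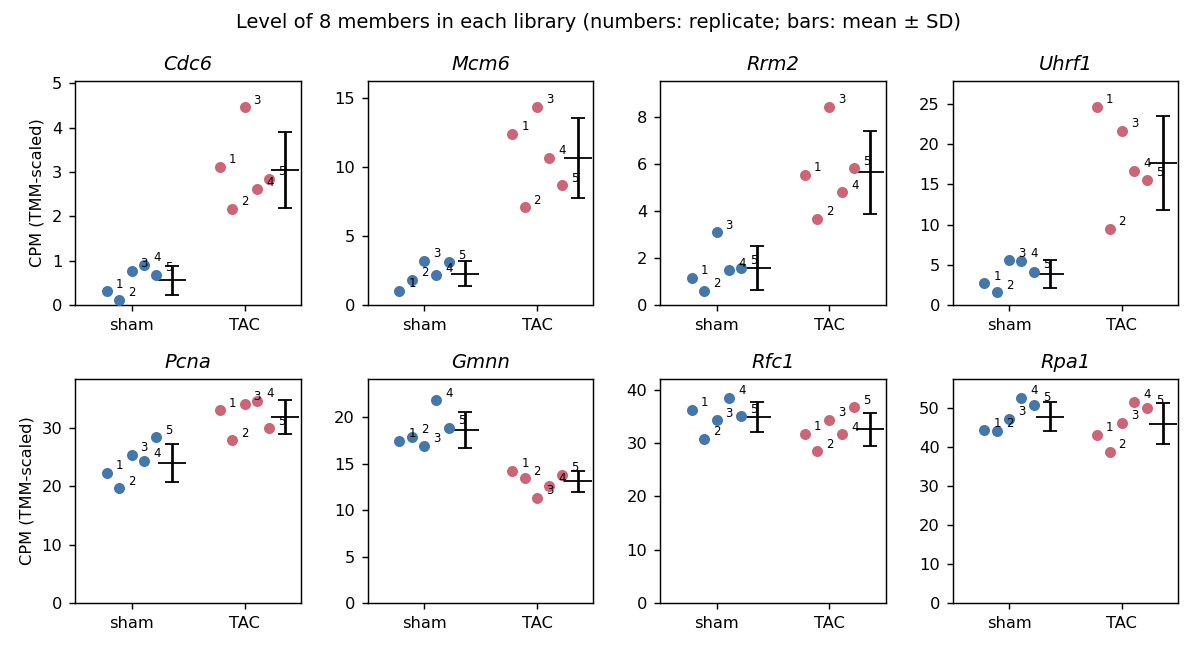
Level in CPM (TMM-scaled, linear axes from 0) of 8 members in each of the 5 sham and 5 TAC libraries; numbers give the replicate and bars the mean ± SD. Cdc6, Mcm6, Rrm2 and Uhrf1 are higher in every TAC library, Pcna is higher with 1 overlapping pair, Gmnn is lower in every TAC library, and Rfc1 and Rpa1 overlap.

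Whether partners in a step changed by different amounts was tested as a ratio of counts within each library, which does not depend on how libraries are scaled. For 8 ratios the 10 libraries were divided into 2 sets of 5 in every possible way in an exact two-sided permutation test, whose smallest possible p is 0.00794, and p-values were adjusted over the 8. Rrm2 over Rrm1 was 0.173, 0.0957, 0.363, 0.174 and 0.20 in sham replicates 1 to 5 and 0.396, 0.447, 0.610, 0.410 and 0.480 in TAC replicates 1 to 5. All TAC ratios lay above all sham ratios, and the mean log2 ratio was 1.33 higher, a 2.52-fold difference (exact permutation p = 0.00794, adjusted 0.0106). The fold differences of all 8 ratios come from mean log2 ratios in this way. Rrm2 over Rrm2b, the small subunit used for repair and in resting cells, ranged from 0.0381 to 0.163 in sham and 0.240 to 0.520 in TAC, a 4.48-fold difference (exact permutation p = 0.00794, adjusted 0.0106). Rrm2b itself fell by 0.25 ± 0.09 (SE) on the log2 scale (edgeR adjusted p = 0.0367).

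Also higher in TAC were 3 other ratios. Tk1 over Tk2, the mitochondrial thymidine kinase, ranged from 1.04 to 1.51 in sham and 2.16 to 3.0 in TAC, a 2.02-fold difference. Cdt1 over Gmnn, activator over inhibitor, ranged from 0.0806 to 0.224 in sham and 0.337 to 0.820 in TAC, a 3.60-fold difference. Since Cdt1 and Gmnn were each already separated in opposite directions, that ratio had to separate too and adds no test to theirs. Rfc3, Rfc4 and Rfc5 summed over Rfc1 ranged from 0.156 to 0.263 in sham and 0.265 to 0.399 in TAC, a 1.55-fold difference with a gap of only 0.263 to 0.265 between the groups. Of the summed genes Rfc5 rose (log2 fold change 0.78 ± 0.19, SE), while Rfc3 (0.43 ± 0.23) and Rfc4 (0.06 ± 0.25) did not pass. Each of these 3 ratios had an exact permutation p of 0.00794, adjusted 0.0106.

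The ring genes were also set against Mki67, a marker of cycling cells. Mcm2 to Mcm7 summed over Mki67 was 16.2, 28.1, 5.64, 11.7 and 13.5 in sham and 2.56, 2.86, 2.23, 2.78 and 2.03 in TAC. The ratio was 0.187 times as high in TAC (exact permutation p = 0.00794, adjusted 0.0106), which says that Mki67 differed by more than the ring genes did. Mki67 had 1.22 to 8.27 CPM in sham and 23.4 to 53.4 CPM in TAC, a log2 fold change of 3.44 ± 0.33 (SE, edgeR adjusted p = 2.73e-05). The ratios of Orc1 and Orc6 over Orc2 to Orc5 and of Pole2 over Pole4 did not pass, at 1.47-fold (exact permutation p = 0.0635, adjusted 0.0726) and 1.34-fold (p = 0.159, adjusted 0.159).

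**Figure D4:**
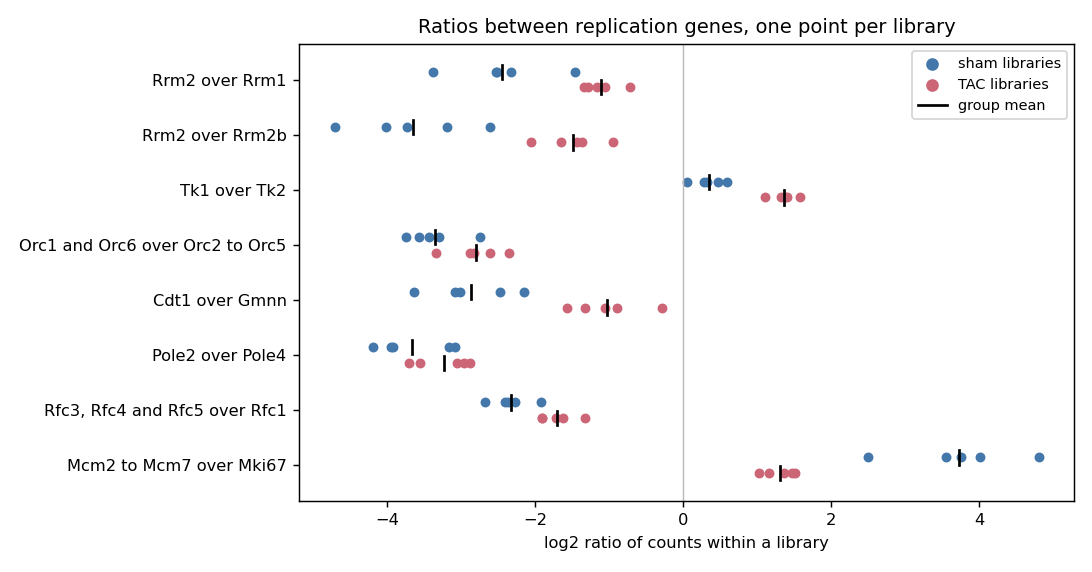
Log2 ratio of counts within a library for 8 pairs or groups of genes, with 1 point per library (blue sham, red TAC) and a black line at each group mean. In 6 ratios the groups do not overlap, with 5 higher in TAC and Mcm2 to Mcm7 over Mki67 lower, while the Orc and Pole2 ratios overlap.

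The libraries kept a similar order from gene to gene. TAC replicate 2 was the lowest TAC library for 29 of the 40 tested members and for 21 of the 22 that rose, the exception being Gins2. TAC replicates 3 and 1 were the highest for 18 and 13 of the 40. In sham, replicates 1 and 2 were each the lowest for 14 of the 40, and replicates 4 and 3 the highest for 14 and 12. The summed level of the 22 risen genes was 93.9 to 127 CPM over the sham libraries and 170, 220, 247 and 296 CPM over TAC replicates 2, 5, 4 and 3, with TAC replicate 1 just above replicate 3.

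Counts of partner genes outside the list are read against the 18.8% of all tested genes that rose and the 17.0% that fell. Their counts with no filter are read against 2245 risen and 1943 fallen of all 16647 genes. Of 15 tested pre-replicative and firing genes 5 rose (33.3%) and none fell, with a median log2 fold change of 0.13. They included Topbp1, which activates the checkpoint kinase Atr and helps origins fire (0.74 ± 0.09, SE), Dbf4, the activator of the origin kinase Cdc7 (1.45 ± 0.29), and Wdhd1 (1.09 ± 0.30). Dbf4, Wdhd1 and Recql4, 3 of the 5 risen genes, passed the filter on low counts through their TAC libraries, with at most 2 sham libraries above its minimum. With no filter 7 of all 17 rose and none fell. Of 19 tested fork and checkpoint partners 6 rose (31.6%) and none fell, with a median of 0.13. Top2a, the topoisomerase of dividing cells, rose by 3.08 ± 0.31 (SE), Clspn, a fork checkpoint mediator, by 2.80 ± 0.40, and Chtf18, of the alternative clamp loader, by 1.36 ± 0.21. Clspn and Atad5 passed the filter through TAC in the same way, and with no filter 8 of all 23 rose and none fell. Of 13 chromatin partners 3 rose (23.1%, near the share of all genes), Cdca7 (1.60 ± 0.23), the maintenance methyltransferase Dnmt1 (0.67 ± 0.11) and the histone chaperone Asf1b (1.25 ± 0.28), which was kept through TAC, and none fell.

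Of 29 tested genes of the wider nucleotide pathway 6 were higher and 6 lower (20.7% each), shares near those of all tested genes, with a median of -0.02. With library totals 7 were higher and 3 lower. Risen genes included Dck, deoxycytidine kinase (0.90 ± 0.20, SE), Mthfd2, a mitochondrial folate enzyme (1.12 ± 0.26), and Ctps, CTP synthase (0.27 ± 0.07). Fallen genes included the purine synthesis genes Paics (-0.28 ± 0.06) and Adsl (-0.31 ± 0.06) and the nucleoside diphosphate kinase Nme2 (-0.21 ± 0.05).

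Among 18 E2F and pocket protein regulators 8 rose (44.4%) and 3 fell (16.7%), and without TAC replicate 1 7 rose and 2 fell. E2f1, an activator of S-phase genes, rose by 2.42 ± 0.32 (SE), Foxm1 by 2.53 ± 0.21 and Mybl2 by 2.87 ± 0.38, both known for driving mitotic genes. Mybl2 was kept through TAC, with 1 sham library above the filter's minimum. Tfdp2, a dimer partner of E2F, fell by 0.73 ± 0.10, E2f6 by 0.29 ± 0.05 and the pocket protein Rbl2 by 0.32 ± 0.11. The other risen genes of this list were E2f2, E2f7, E2f8, Tfdp1 and the pocket protein Rbl1. E2f7 and E2f8 each rose by more than E2f6 fell, and Rbl1 rose by more than Rbl2 fell. The E2F genes and the pocket proteins therefore each had members that rose and members that fell. In a reference list of mitotic genes 19 of 20 tested genes were higher, but 13 of the 20 were tested only through their TAC libraries, so this count and the median of 2.79 describe genes the filter had partly chosen. With no filter 24 of all 25 were higher with a median of 2.76, against 22 of 42 and 0.64 for the replication genes. Of all 16647 genes in that fit 2245 rose and 1943 fell. Prc1, Bub1b and Anln, which all belong to the 13 kept through TAC, rose by 3.34 ± 0.27, 3.32 ± 0.30 and 3.57 ± 0.33 (SE). These lists were made with earlier results of these data known, and all values named here passed in edgeR.

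Markers of cell types did not all go in the same direction after TAC. Their counts too are read against the 18.8% of all tested genes that rose and the 17.0% that fell. Without TAC replicate 1 these shares were 16.7% and 15.1%. All 8 macrophage markers rose, and 7 rose without TAC replicate 1. Their summed level of 154 to 191 CPM in sham was exceeded in every TAC library, up to 421 CPM. Of these, Fcgr1 was kept through TAC, with 1 sham library above the filter's minimum. Fcgr1 had 62 counts in TAC replicate 1 and 12 to 16 in the other TAC libraries. With no filter all 8 again rose, against 2245 of all 16647 genes. Of 8 fibroblast markers 5 rose and 1 fell, or 4 and 1 without TAC replicate 1, with sums of 2196 to 2620 and 3187 to 6127 CPM. This sum was moved most by Col1a1 (mean 307 CPM in sham and 1351 in TAC), Col1a2 (213 and 904) and Gsn (1599 and 1152). Gsn was the 1 marker that fell. Of 8 cardiomyocyte markers 6 fell and none rose, with sums of 87883 to 106303 and 63484 to 86576 CPM. Endothelial markers rose for 2 of 8 (25.0%), near the share of all genes, and for 4 without TAC replicate 1. Their sums were 1140 to 1364 CPM in sham and 1278 to 1561 CPM in TAC. Smooth muscle and pericyte markers rose for 2 of 8 (25.0%), also near that share, or 3 without TAC replicate 1. The sums of these were 1075 to 1415 CPM in sham and 1148 to 1294 CPM in TAC. Lymphocyte markers summed to at most 3.47 CPM in any library, neutrophil markers to at most 9.27 CPM, and Ly6g was at 0 in all libraries. Erythroid markers ranged from 276 to 1697 CPM in sham and 1004 to 2147 CPM in TAC, and none of the 6 passed. The library of TAC replicate 1 had the highest macrophage and fibroblast sums and the lowest cardiomyocyte sum. The part of cell composition in the differences of the replication genes was not tested.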

How the data were processed

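Reads were counted per gene by the authors, and the deposited counts are whole numbers with no normalization. The submitters' processing notes name Bowtie2, TopHat2 2.0.10 and HTSeq with mm10 for sham, and Bowtie and TopHat 1.3.0 with HTSeq and both mm9 and mm10 for TAC. Counting settings are not stated in these sources. The test was edgeR 4.0.16 under R 4.3.3: quasi-likelihood, TMM, filterByExpr with a minimum count of 10, no covariate beside the group, and Benjamini-Hochberg adjustment over all tested genes at 0.05. DESeq2 1.42.0, other scalings, no filter, a replicate block and each left-out library were alternatives. Ratios used log2 counts with a pseudocount of 0.5 and exact permutation tests. Levels per kilobase used the principal transcript of GENCODE M21 (GRCm38), matched by Ensembl ID for 94.6% of genes; the table's own annotation is GRCm37, so overlaps between genes are those of M21. The fit was tested on simulated data. The members and lists were chosen with earlier results of these data known. In each role the 3 genes with the smallest adjusted p and all that fell, did not pass or were not tested are named, and in each partner list up to 3 per direction; others were added for completeness. The design text counts mice, so replicates were taken as animals.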

Additional observations from a re-analysis of the deposited data

Results flagged for a closer look

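Of 102 sets of 5 values, 2 held a library standing apart from the other 4 by Dixon's test, which chance alone gives in about 1 of 20 sets. Prim1 was at 2.89 CPM in TAC replicate 3 and at 1.09 to 1.57 CPM in the other TAC libraries. Rpa2 was at 6.98 CPM in sham replicate 4 and at 8.29 to 8.59 CPM in the other sham libraries. Neither gene passed in edgeR, and neither left-out library changed that.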

How the results depend on the processing

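Leaving out 1 library at a time gave 21 to 23 risen members, a median log2 fold change of 0.55 to 0.71, and 1 to 2 fallen members, with Dut the second without TAC replicate 3. Hells was lost without TAC replicate 4 or 5, where it was not tested; Gins3 was gained without sham replicate 2 and Fen1 without TAC replicate 5. Library totals gave 24 risen members (Fen1 and Pola2 added), 1159 fallen genes overall against 2040 and 3257 risen against 2251, and 7 risen chromatin partners against 3. The Orc ratio ranged from 0.45 to 0.71 on the log2 scale and passed without sham replicate 3 (adjusted p = 0.0363, exact permutation). Signs turned in genes that did not pass: with library totals Gins1 to 0.09, Rfc1 to 0.01, Rpa1 to 0.05, Rpa2 to 0.06 and Rpa3 to 0.04. With 1 library left out, Gins1 ranged from -0.18 to 0.16 (0.01, 0.04 and 0.09 included), Rfc4 from -0.06 to 0.21 (-0.02 included), Rpa3 from -0.17 to 0.03 (0.00 and 0.02 included), and Pold2 turned to -0.03 or -0.01. The causes were not tested. With all exon bases as the length, the Mcm ring's highest mean level was 2.16 times its lowest in TAC, against 1.72. No filter and DESeq2 changed no member's call, and a pseudocount of 2 changed no ratio's call.

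Replicate numbers did not pair the libraries: same-numbered libraries deviated with correlations of -0.0916 to 0.222, and 3 of 10 correlated best with their own number. With the replicate block 22 members rose and 1 fell. The 6 ratio differences of 1.33, 2.16, 1.02, 1.85, 0.63 and -2.42 stayed, but 5 pairs allow no p below 0.0625, so none could pass. Depth limits Cdc6, Gins2, Mcm10, Hells, Gins3, Pole2 and Orc1l most, with under 10 counts in most sham libraries.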
